A study of Mus musculus with 5 samples.

Results

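The genes described here had a late-onset rise after kainic acid seizures in mouse hippocampus: they stood near or below the untreated level at 1 h and above it at 8 h. They were chosen by their counts in the control, 1 h and 8 h libraries and by their mean count over all 5 libraries. A gene was taken when its mean count was at least 50, its level at 8 h was at least 2 times the control and its level at 1 h was under 1.3 times the control. The level is the count per 1000000 gene counts of its library (CPM), and 0.1 CPM was added to both sides of each ratio. This rule took 141 genes of 13349 that passed the minimum mean count, or 1.06%, out of 55385 genes counted in all. The values that chose them are given as a description with no test, and the 4 h libraries, which entered only the mean count, are described against the same control library.

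Total RNA was sequenced from the hippocampi of male C57/bl6 mice aged 3 months. The control was untreated hippocampus (0 h), and the other libraries came from mice killed once 1, 4 or 8 h had passed since their seizures began, provoked by 20 mg/kg kainic acid, injected intraperitoneally. There was 1 library each for the control, 1 h and 8 h and a pair for 4 h, called replicate 1 and replicate 2. The sources do not say whether a library came from a single mouse, and no library of vehicle-injected mice was analysed here, so injection, seizure and time after them cannot be told apart. Gene counts summed to 19100374 in the control, 17744508 at 1 h, 18250114 and 19109204 in the 4 h replicates and 16612225 at 8 h. Only the 4 h time point had replicates, so differences at 1 h and 8 h have no replicate check.

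Kainic acid activates kainate-type glutamate receptors, which are dense in hippocampal field CA3, and provokes long seizures. Immediate early genes respond within minutes to an hour, and a later wave follows in neurons, glia and vessels, which includes effector genes of synapses and peptides, cytokine signalling and the astrocyte reaction. In astrocytes this reaction is known for intermediate filament proteins, protease inhibitors and acute-phase proteins.

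Markers of neurons were abundant in each library, with a summed level between 6027 CPM at 8 h and 6735 CPM at 1 h over 12 genes, led by Snap25. Within this sum the ratios at 4 h went both ways, with no test of their differences. Neurod6, of pyramidal cells, was at 0.374 and 0.442 times the control in the 4 h replicates, Rbfox3 at 0.610 and 0.657, Slc17a7 at 0.701 and 0.857, Camk2a at 0.751 and 0.891 and Snap25 at 1.02 and 0.940. Prox1, of granule cells, was at 2.53 and 1.89 times, Gad1, of inhibitory neurons, at 1.78 and 1.41 times and the neurofilament gene Nefm at 1.55 and 1.47 times. Choroid plexus markers set 1 library apart. Their 11 genes, led by Ttr, summed to 4307 CPM in the control, 1733 at 1 h, 29.9 and 4375 in the 4 h replicates and 3389 at 8 h, so replicate 1 at 4 h held nearly none of this tissue. None of the 11 markers was at 0 in all libraries, and none was a late-onset gene. Oligodendrocyte markers, led by Mbp, summed to 3854, 4598, 4071, 5599 and 3931 CPM in the same order and were highest in replicate 2 at 4 h. Endothelial markers, led by Flt1, summed to between 171 and 228 CPM, and single ones went both ways in the 4 h replicates: Slco1a4 was at 0.220 and 0.586 times the control, Abcb1a at 0.357 and 0.613, Tek at 0.482 and 0.445, Kdr at 0.585 and 0.571 and Cdh5 at 2.98 and 1.28. The sums of mural cells and meningeal fibroblasts, led by Rgs5, lay between 180.0 and 226 CPM. Their part in the values below was not tested, and in whole tissue fewer cells of a type and less RNA per cell cannot be told apart. Each 4 h value is therefore given for both replicates, and the count of genes is also given without each of them.

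**Figure D1:**
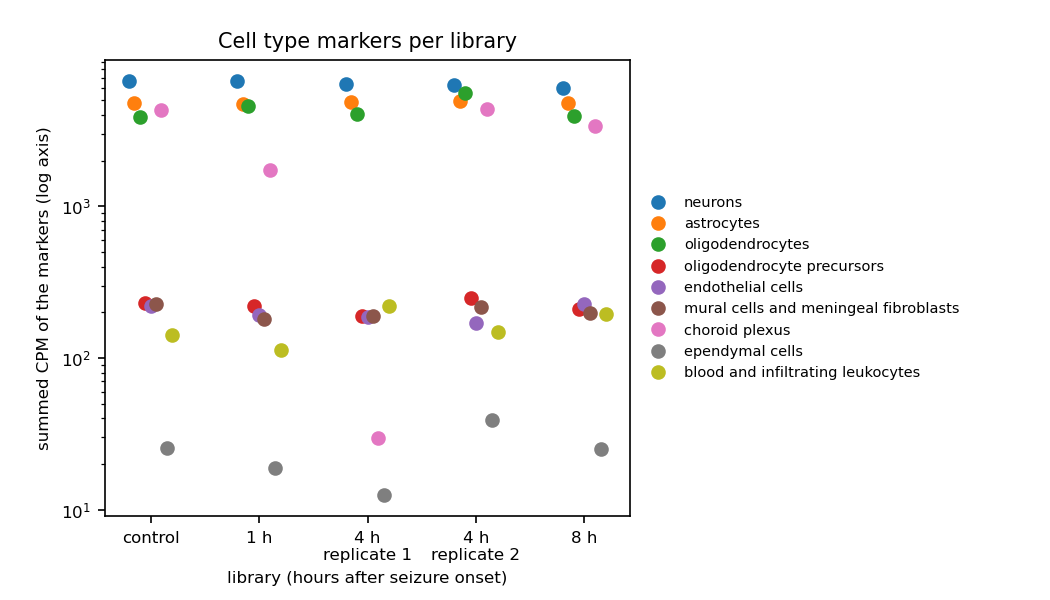
Summed CPM of 9 lists of cell type markers (vertical log axis) in each of the 5 libraries (horizontal axis), 1 point per list and library, offset sideways for legibility. Choroid plexus markers lie at 29.9 CPM in replicate 1 at 4 h and between 1733 and 4375 CPM in the other libraries.

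At 8 h, 272 of 13349 genes (2.04%) were at least 2 times the control, and 131 of these were left out because they were already at 1.3 times the control or more at 1 h. The median ratio to control of the 141 late-onset genes was 1.01 at 1 h and 2.46 at 8 h, values that the choice of genes bounds. Most were modest: 75 had an 8 h ratio under 2.5 and 9 had one of 5 or more. The genes were also less abundant than others, with a median mean count of 264.6 against 494.4 over the 13349 genes, and 37 had a mean count under 100. In 31 of them the control count was under 50, so these passed the minimum through the other libraries.

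The level at 4 h entered the choice only through the mean count, which still favors genes that were high at 4 h among those with a low control count. The median ratio was 1.60 in replicate 1 and 1.72 in replicate 2, or 0.68 and 0.78 on the log2 scale, against -0.21 and -0.09 over the 13349 genes. With the level averaged over both replicates the median log2 ratio was 0.84, against -0.14 over those genes. Both replicates were above the control for 97 of the 141 genes (against 26.7% of the 13349), both were below it for 20 (14.2%, against 53.1%), and 24 genes had 1 replicate on each side. Since the same control library enters the choice and the 4 h ratios, a low control value raises both.

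The genes fell into 3 classes at 4 h. In 41 genes (29.1%) both replicates were already at least 2 times the control, beside 2.28% of the 13349 genes. Of these 41, 17 had a control count under 50 and so passed the minimum mean count only through libraries where they were higher, and nothing is read from the comparison of these shares. A further 41 (29.1%, against 81% of the 13349 genes) were under 1.3 times the control in both replicates, and 59 lay between. Their median ratios at 4 h were 3.08 and 2.97 in the first class, 1.60 and 1.72 in the one between and 0.816 and 0.966 in the class not up at 4 h. At 8 h the class medians were 2.70, 2.31 and 2.31. The 8 h level was above both 4 h replicates in 106 genes and between them in 20. It was below both in 15, all in the first class, so for these the 4 h levels were the highest.

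**Figure D2:**
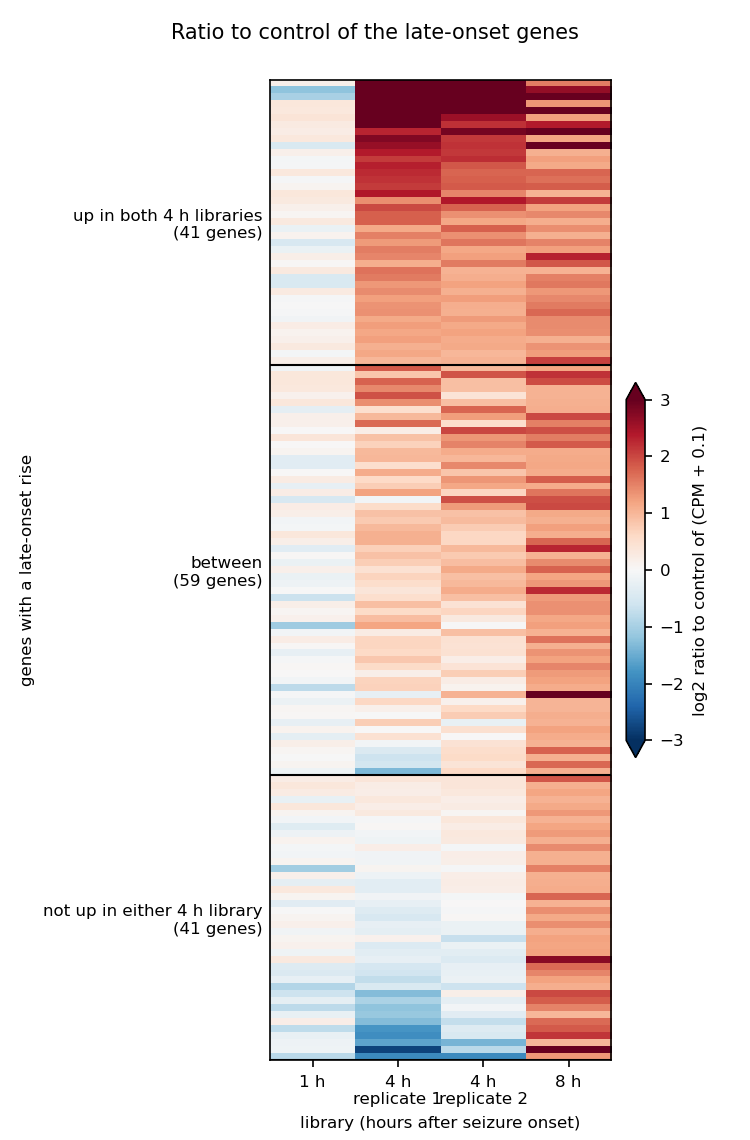
Log2 ratio to control of (CPM + 0.1) at 1 h, in both replicates at 4 h and at 8 h (horizontal axis) for the 141 genes (vertical axis), sorted by class and by mean 4 h ratio; color stops at 3 and -3. The upper 41 genes are above the control in both 4 h replicates, whereas the lower 41 are near or below it and reach at least 2 times the control at 8 h.

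The 4 h replicates differed by 2-fold or more in 15 of the 141 genes (10.6%), against 4.50% of the 13349 genes. Replicate 1 was the lower in 12 of the 15 and the higher in 3 (Hspb1, Gm44022 and Gm44901). With edgeR's quasi-likelihood test and Benjamini-Hochberg adjustment, 1 of 19768 genes, ETV3L, was higher at 4 h than in the control (0.00506%), and none of the 141 late-onset genes was called, all of which were tested. The lowest adjusted p among them in this edgeR test was 0.242, shared by Sox11, Baz1a, Srxn1, Lcn2, Gfap, Cda, Tanc1 and Gm49542. At an unadjusted p under 0.05, 71 of the late-onset genes were higher and 3 lower (C1ql2, Gm34567 and Gm46123), against 1425 of the 19768 genes higher (7.21%) and 866 lower (4.38%). DESeq2 called 24 of them higher, against 1.54% of 14329 genes, and C1ql2 lower, against 0.0907%, and limma-voom called none. In edgeR, library size alone gave 23 higher and 1 lower, against 0.956% higher and 0.243% lower over all genes tested. No filter on low counts gave 61 higher and 3 lower, against 3.12% and 0.852%. An assumed coefficient of variation of 0.4 gave 5 higher and 0 lower, beside 77 of the 19768 genes higher. Median-of-ratios factors gave 0. The control library of these tests is the one that chose the genes, so nothing is read from counts above these shares. The p-values measure only the spread between the pair at 4 h, which may be technical.

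The largest group by known role, with 19 genes, belonged to the glial reaction and cytokine response. These groupings were made after the genes were known and only order the description. In 13 of the 19 both 4 h replicates were at least 2 times the control, beside 29.1% of all late-onset genes. Another 4 lay between, and Tnfrsf25 and Parp14 were not up in either. The 29.1% also stands beside the counts of genes up at 4 h in the role groups below. Differences between these groups were not tested. Markers of blood and infiltrating leukocytes, led by Hbb-bs, summed to 142 CPM in the control, 114 at 1 h, 220.2 and 149.5 in the 4 h replicates and 194 at 8 h. Single microglia markers went both ways in the 4 h replicates, with P2ry12 at 0.388 and 0.531 times the control, Cx3cr1 at 0.690 and 0.717, C1qa at 1.24 and 1.20 and Cd68 at 1.62 and 1.24. The part of these cells in the values of the group was not tested. Osmr, the receptor subunit that pairs with gp130 to bind oncostatin M, had 4.92 CPM in the control, 5.92 at 1 h, 43.6 and 22.7 in the 4 h replicates and 26.1 at 8 h. Lcn2 encodes lipocalin, a secreted protein that binds bacterial iron carriers and a classical product of reactive astrocytes. It had 6 counts in the control, 2 at 1 h, 83 and 101 in the 4 h replicates and 101 at 8 h. Its ratio of plain CPM at 8 h was 19.4 with a 95% counting interval from 8.59 to 54.0, and intervals here cover counting error only. The 8 h ratio chose the genes, so intervals at 8 h describe the counting and test nothing. Osmr and Lcn2 were near their 8 h level, or above it, in each 4 h replicate.

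The intermediate filament genes of astrocytes showed a smaller step. Gfap had 230.4 CPM in the control, 269 at 1 h, 549.8 and 505 in the 4 h replicates and 619.8 at 8 h, a fitted edgeR log2 fold change at 4 h of 1.32 with a standard error of 0.19. Vim had 25.7 CPM in the control, 31.1 at 1 h, 69.0 and 54.0 in the 4 h replicates and 63.3 at 8 h. The protease inhibitor gene Serpina3n had 29.5 and 29.3 CPM in the control and at 1 h, 75.2 and 63.4 in the 4 h replicates and 86.5 at 8 h. In all 3 genes the control and 1 h libraries lay apart from the later ones. Of a list of 24 reactive astrocyte genes, 17 passed the minimum mean count, 8 of these were at least 2 times the control at 8 h, and all 8 were late-onset genes: Gfap, Vim, Serpina3n, Lcn2, Osmr, Hspb1, Aspg and Sphk1. Over the 13349 genes, 2.04% were at least 2 times the control at 8 h and 1.06% were late-onset genes. The list was made with earlier results of these data known, so nothing is read from this count. With a pseudocount of 1 CPM, Sphk1 and Hspb1 were under 2 times the control at 8 h, which leaves 6. Aspg passed 1.3 times the control at 1 h with TMM or median-of-ratios factors. Sphk1 without replicate 1 at 4 h, and Lcn2 without replicate 2, fell under the minimum mean count. General astrocyte markers summed to 4799 CPM in the control and 4826 CPM at 8 h over 11 genes, a sum led by the glutamate transporter gene Slc1a2, with 2725 and 2786 CPM. Single markers differed from the sum: the gap junction gene Gja1 had 203 CPM in the control, 179 and 200.3 in the 4 h replicates and 104 at 8 h. Gjb6 was at 1.16 and 1.20 times the control in the 4 h replicates and 0.765 times at 8 h, Sox9 at 1.69 and 1.21 and then 1.11 times, and Aqp4 at 1.42 and 1.26 and then 0.978 times, so no common direction is read from them. None of these 11 was a late-onset gene, which at a share of 1.06% over the 13349 genes says little. The same share stands beside the counts of late-onset genes in the gene lists below, and nothing is read from them.

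Further genes of this group encode proteins of inflammation and its control. Anxa2 and S100a10, whose products form a membrane-binding complex, were up in both 4 h replicates: Anxa2 had 8.59 CPM in the control, 30.2 and 22.5 at 4 h and 23.5 at 8 h. For Sphk1, the kinase that makes sphingosine-1-phosphate, the level was 1.20 CPM in the control, 6.63 and 5.60 at 4 h and 2.65 at 8 h, so it was highest at 4 h. S1pr2, a receptor for that lipid, had 1.68, 4.05, 4.13 and 4.70 CPM in the same libraries. Icam1, an adhesion molecule for leukocytes, had 1.68 CPM in the control, 5.97 and 3.24 at 4 h and 6.80 at 8 h. The osteopontin gene Spp1 had 5.71 CPM in the control, 12.8 and 19.9 at 4 h and 15.0 at 8 h. Here and below, the measured genes of a list are those that passed the minimum mean count. Spp1 was the single late-onset gene among the 6 measured genes, of 22 listed, of microglial and inflammatory activation. Of these 6, 3 more were at least 2 times the control at 8 h but already past 1.3 times at 1 h. Gbp2 was the single late-onset gene of 8 measured interferon response genes, with 3.35 CPM in the control, 5.32 and 4.55 at 4 h and 7.16 at 8 h, which is under 2 times the control with a pseudocount of 1 CPM (log2 ratio 0.91).

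The 3 genes filed under oxidative and heat stress were up in both 4 h replicates, and none was above both of them at 8 h; Hspb1, filed under the glial reaction, lay between. Srxn1 encodes sulfiredoxin, which repairs overoxidized peroxiredoxins. It had 70.1 CPM in the control, 90.9 at 1 h, 665 and 415 in the 4 h replicates and 163 at 8 h, so the 8 h level was 2.33 times the control after a 4 h level of 9.48 and 5.91 times. Hmox1, heme oxygenase, had 3.93 and 3.83 CPM in the control and at 1 h, 18.1 and 13.8 in the 4 h replicates and 12.5 at 8 h. Hsph1, a chaperone of the large heat shock protein family, had 281 CPM in the control, 344 at 1 h, 868 and 577 in the 4 h replicates and 578 at 8 h. The small heat shock gene Hspb1 differed between the 4 h replicates, with 15.7 CPM in replicate 1 and 5.44 in replicate 2, beside 4.08 in the control and 8.49 at 8 h. Hspa1a, an inducible chaperone outside the late-onset genes, had 86.4 CPM in replicate 1 and 4.97 in replicate 2, beside 5.03 in the control. Of 13 heat shock genes, Hspb1 and Hsph1 were late-onset genes, and of 14 measured metallothionein and antioxidant genes, Srxn1 and Hmox1 were. The share over the 13349 genes was 1.06%, and nothing is read from these counts.

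Among 7 genes of transcription and chromatin, 3 were up in both 4 h replicates. The largest mean log2 ratio at 4 h of all 141 genes belonged to Baz1a, a subunit of a chromatin remodeling complex. In replicate 2 alone Gm49542 was higher, at 14.2 times the control against 13.0 for Baz1a. Baz1a had 45 counts in the control, 47 at 1 h, 1094 and 610 in the 4 h replicates and 116 at 8 h. Its fitted edgeR log2 fold change at 4 h was 4.36 with a standard error of 0.57. Sox11, a transcription factor of immature neurons, had 31.3 CPM in the control, 33.3 at 1 h, 134 and 112 in the 4 h replicates and 111 at 8 h. Rara, a retinoic acid receptor, was still higher at 8 h, with 9.63 CPM in the control, 14.5 and 24.4 at 4 h and 34.3 at 8 h. None of the immediate early genes of a list of 21 measured ones was a late-onset gene, which at 1.06% over the 13349 genes says little. On this list 4 genes were at least 2 times the control at 8 h but past 1.3 times at 1 h.

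**Figure D3:**
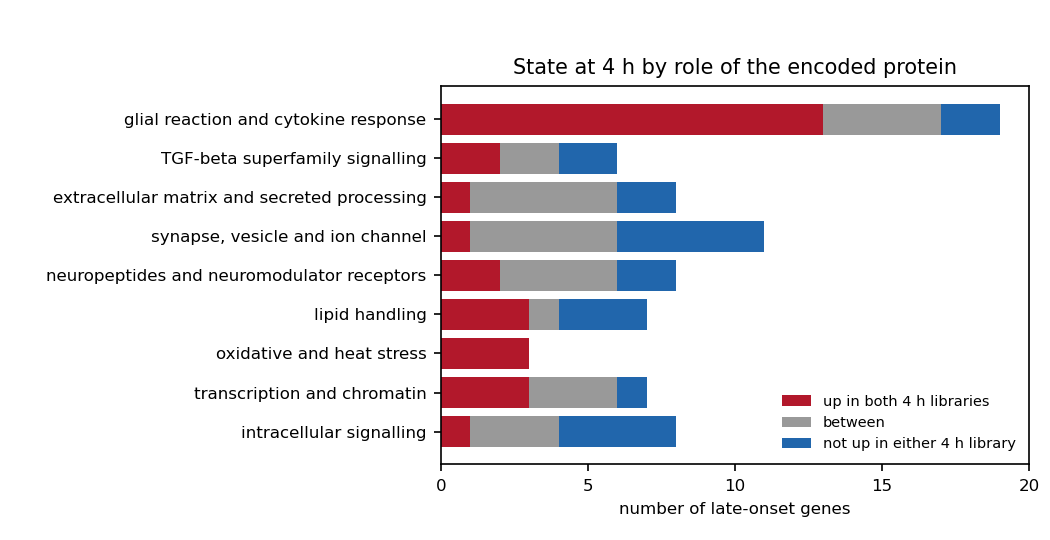
Number of late-onset genes (horizontal axis) by the role of their product (vertical axis), split by state at 4 h; 77 of the 141 genes are shown. The bar of glial reaction and cytokine response holds 13 of 19 genes that were up in both 4 h replicates, and that of synapse, vesicle and ion channel 1 of 11. Over all late-onset genes the share up in both was 29.1%.

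Synapses, vesicles and ion channels were represented by 11 genes, of which 1 was up in both 4 h replicates, 5 were not up in either and 5 lay between, beside 29.1% of the 141 genes in each of the first 2 of these classes. Whether this group differs from the other genes was not tested. Sv2c encodes a glycoprotein of synaptic vesicles. It had 22.5 CPM in the control, 26.4 at 1 h, 28.8 and 29.0 in the 4 h replicates and 82.8 at 8 h, so the 8 h library stood alone. Cacna1g, a T-type calcium channel, had 50.0 and 47.9 CPM in the control and at 1 h, 57.0 and 48.3 in the 4 h replicates and 135 at 8 h. Rimbp2, which links calcium channels to the release machinery, had 118 CPM in the control, 124.7 at 1 h, 85.4 and 122 in the 4 h replicates and 259.7 at 8 h. Cacna1g thus had 4 h values near the control, whereas Rimbp2 was below it in replicate 1 (log2 ratio -0.47) and near it in replicate 2. In both genes the 8 h value was above every other library. Kcnip3, a calcium-binding subunit of A-type potassium channels, had 77.4 CPM in the control, 69.4 and 88.3 at 4 h and 163 at 8 h. Of 37 potassium, sodium and calcium channel genes on the list, Kcnip3 and Cacna1g were late-onset genes. Of 30 glutamate and GABA receptor genes 0 were, which is near the 1.06% over the 13349 genes.

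C1ql2 went below the control before its 8 h value. Its product is secreted at mossy fiber synapses, where it helps to recruit kainate receptors. It had 584 counts in the control, 491 at 1 h, 186 and 221 in the 4 h replicates and 1019 at 8 h. The 4 h ratios were 0.336 and 0.380, and the 8 h ratio of 2.003 was among the lowest that the rule admits. Conversely, Sorcs3, a sorting receptor of the postsynaptic side, was up in both 4 h replicates, with 66.0 CPM in the control, 170.5 and 138 at 4 h and 219 at 8 h. The postsynaptic scaffold gene Tanc1 had 216 CPM in the control, 426 and 468 at 4 h and 468 at 8 h, and the latrophilin gene Adgrl3, whose product is an adhesion receptor of synapses, had 191, 282, 254 and 528 CPM. These 3 genes were above the control in both 4 h replicates.

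**Figure D4:**
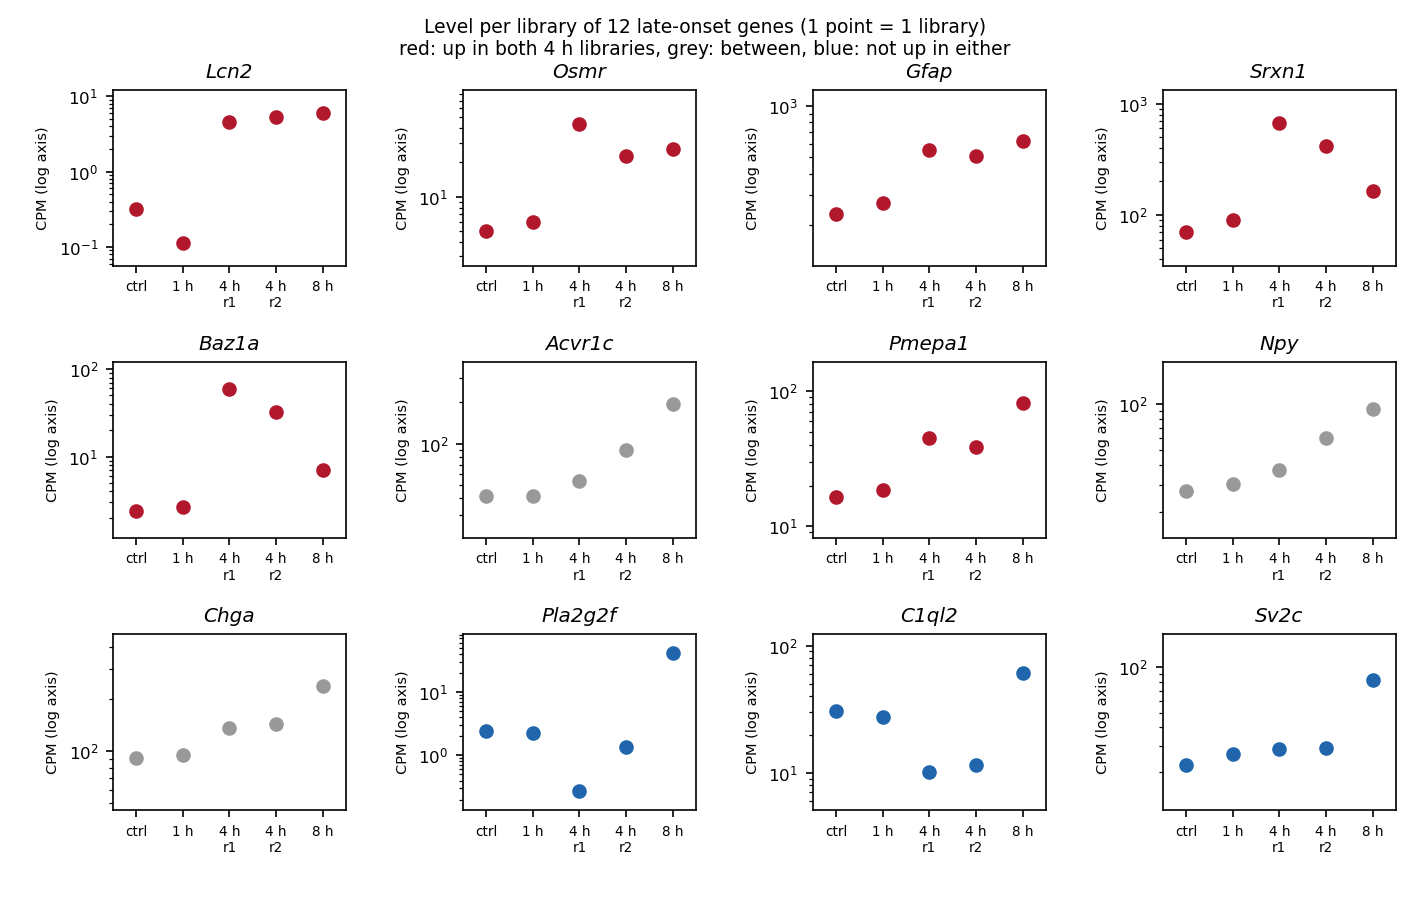
CPM (vertical log axes, which differ between panels) of 12 late-onset genes in the control, at 1 h, in both replicates at 4 h and at 8 h (horizontal axes), 1 point per library. Osmr, Srxn1 and Baz1a are highest in a 4 h replicate, whereas Pla2g2f, C1ql2 and Sv2c are highest at 8 h and near or below the control at 4 h.

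Peptides and receptors of neuromodulators made up 8 genes, 2 of them up in both 4 h replicates, 2 not up in either and 4 between. Npy encodes neuropeptide Y, which dampens glutamate release in the hippocampus. It had 27.1 CPM in the control, 30.4 at 1 h, 37.2 and 60.0 in the 4 h replicates and 93.4 at 8 h. Chga encodes chromogranin, a protein of dense-core vesicles, and had 91.4, 95.1, 137, 143 and 237 CPM in the same order. Both were above the control in each 4 h replicate and highest at 8 h. Npy and Chga were the late-onset genes among 19 measured neuropeptide, granin and convertase genes, while 4 others were at least 2 times the control at 8 h but already past 1.3 times at 1 h. The receptor genes differed from each other. Sstr2, a somatostatin receptor, had 9.27 CPM in the control, 9.02 at 1 h, 47.1 and 34.1 in the 4 h replicates and 20.3 at 8 h. Gipr, the receptor for the gut hormone GIP, had 21 counts in the control, 25 at 1 h, 340 and 204 in the 4 h replicates and 48 at 8 h, which is under 2 times the control with a pseudocount of 1 CPM (log2 ratio 0.89). Both receptor genes were highest in the 4 h replicates, and the adrenergic receptor gene Adra2c, with 18.6 CPM in the control, 11.2 and 16.5 at 4 h and 43.5 at 8 h, was not.

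Genes of TGF-beta superfamily signalling numbered 6, and in all 6 the 8 h level was above both 4 h replicates, as in 75.2% of the 141 genes. Receptors are represented by Acvr1c and Acvr1. Acvr1c encodes a type I receptor for activin and nodal ligands and had 41.4 CPM in the control, 41.2 at 1 h, 53.5 and 90.1 in the 4 h replicates and 195 at 8 h. Acvr1, a type I receptor for bone morphogenetic proteins, had 21.0, 27.1, 38.7, 52.6 and 61.0 CPM in that order, and did not meet the 1 h limit with TMM factors. Inhibitors of the pathway are represented by Pmepa1 and Ldlrad4, which bind receptor-activated Smad proteins. Pmepa1 had 16.4 CPM in the control, 18.6 at 1 h, 45.3 and 38.7 in the 4 h replicates and 81.9 at 8 h, and Ldlrad4 had 23.1, 27.7, 26.7, 28.7 and 52.4 CPM. Klf10, a transcription factor gene that TGF-beta is known to induce, had 32.9 CPM in the control, 70.6 and 97.9 at 4 h and 120.4 at 8 h. Smad9, a transducer of bone morphogenetic protein signals, had 9.79 CPM in the control, 9.48 and 12.5 at 4 h and 20.4 at 8 h.

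The extracellular matrix and secreted processing enzymes gave 8 genes, of which 1 was up in both 4 h replicates. This was Col3a1, a fibrillar collagen gene of fibroblasts, with 3.98 CPM in the control, 2.87 at 1 h, 11.9 and 8.58 in the 4 h replicates and 11.6 at 8 h. Another fibrillar collagen gene, Col27a1, was not up in either, with 4.45, 4.68, 4.11, 4.24 and 15.0 CPM. Itga11, a collagen-binding integrin, differed between the replicates, with 3.35 CPM in the control, 1.26 in replicate 1, 5.13 in replicate 2 and 7.10 at 8 h (log2 ratio 0.90 with a pseudocount of 1 CPM). Prss23, a secreted serine protease, had 14.8 CPM in the control, 29.3 and 35.6 at 4 h and 58.2 at 8 h. Of the 11 endothelial markers measured, Pecam1 was a late-onset gene, with 13.7 CPM in the control, 21.2 and 15.0 at 4 h and 27.6 at 8 h. It was under 2 times the control at 8 h with TMM or median-of-ratios factors (log2 ratio 0.99 each) and with a pseudocount of 1 CPM (0.97).

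Lipid-handling genes numbered 7 and differed widely from each other at 4 h, with 3 up in both replicates and 3 not up in either. Dgat2l6, of the diacylglycerol acyltransferase family, had the largest 8 h ratio of the 141 genes with the pseudocount of 0.1 CPM. With 1 CPM its log2 ratio was 3.38, below the 3.59 of Pla2g2f. It had 11 counts in the control, 7 at 1 h, 74 and 56 in the 4 h replicates and 256 at 8 h, so both 4 h replicates lay between the early libraries and 8 h. The 8 h ratio was 22.9, and that of plain CPM was 26.8 with a 95% counting interval from 14.7 to 54.3. This ratio chose the gene, so the interval tests nothing. Pla2g2f, a secreted phospholipase, had 47 counts in the control, 40 at 1 h, 5 and 26 in the 4 h replicates and 675 at 8 h. Its plain CPM ratio was 0.111 (95% counting interval 0.0346 to 0.279) in replicate 1, 0.553 (0.329 to 0.911) in replicate 2 and 16.5 (12.3 to 22.7) at 8 h. The interval at 8 h again rests on counts that chose the gene and tests nothing. Slc27a3, an acyl-CoA synthetase of the fatty acid transport family, had 6.23 CPM in the control, 1.75 and 4.71 at 4 h and 22.7 at 8 h. On the other side, Angptl4, a secreted inhibitor of lipoprotein lipase, had 1.47 CPM in the control, 10.6 and 6.70 at 4 h and 3.43 at 8 h. Lpin2, a phosphatidate phosphatase, had 131 CPM in the control, 122 and 150.5 at 4 h and 272 at 8 h. None of 16 measured genes of a list of cholesterol synthesis and lipid handling was a late-onset gene, which at 1.06% over the 13349 genes says little.

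Intracellular signalling gave 8 genes, of which 1 was up in both 4 h replicates and 4 were not up in either. Trib2, a pseudokinase, had 47.7 CPM in the control, 39.7 at 1 h, 24.5 and 39.7 in the 4 h replicates and 169 at 8 h. Prex1, an exchange factor for Rac, had 104, 111, 94.4, 126 and 219 CPM in that order. In both genes the 8 h library stood alone. Hbegf, a ligand of the EGF receptor, had 10.8 CPM in the control, 39.1 and 21.5 at 4 h and 24.6 at 8 h, and it was the single late-onset gene among 19 measured growth factors and receptors. The remaining 64 genes had other or unassigned roles, with 12 up in both 4 h replicates and 20 not up in either. Among them Cda, cytidine deaminase, had 10 counts in the control, 3 at 1 h, 185 and 129 in the 4 h replicates and 63 at 8 h. Adgrf4, an orphan adhesion receptor, had 35, 40, 28, 26 and 212 counts, and Megf11, a membrane protein with EGF-like repeats, had 238, 175, 374, 467 and 1009 counts. Some other lists held 1 late-onset gene each, beside a share of 1.06% over the 13349 genes. These were Osmr among 8 measured genes of LIF and gp130 signalling, Spp1 among 29 of extracellular matrix and proteases and Icam1 among 13 of vascular activation. They also included Lcn2 among 20 glucocorticoid targets, Sox11 among 16 of axon growth and injury and Col3a1 among 11 mural cell and fibroblast markers. No late-onset gene was among 21 measured genes of the unfolded protein and integrated stress response or 12 of the cell cycle. The same held for the measured markers of neurons, oligodendrocytes and their precursors, ependymal cells and blood. Nothing is read from the counts of these lists.

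Several late-onset genes overlapped or lay side by side, and whether their values are independent was not tested. The lincRNA genes Gm6999 and Gm49542 and the protein-coding gene Olfm4, which encodes the secreted glycoprotein olfactomedin, share a region on the plus strand of chromosome 14 (GRCm38). Gm6999 spans chr14:79836712-80006326, Gm49542 lies within it, and Olfm4, at chr14:79984081-80023139, overlaps its end by 22246 bp, with 153 bp of shared exon. Gm6999 had 21 counts in the control, 23 at 1 h, 105 and 166 in the 4 h replicates and 267 at 8 h, and Gm49542 had 17, 20, 146, 266 and 308. Olfm4 followed later, with 61, 55, 49, 128 and 564 counts, so that its 4 h replicates lay on either side of the control. Reads from the shared exon cannot be told apart by these counts.

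**Figure D5:**
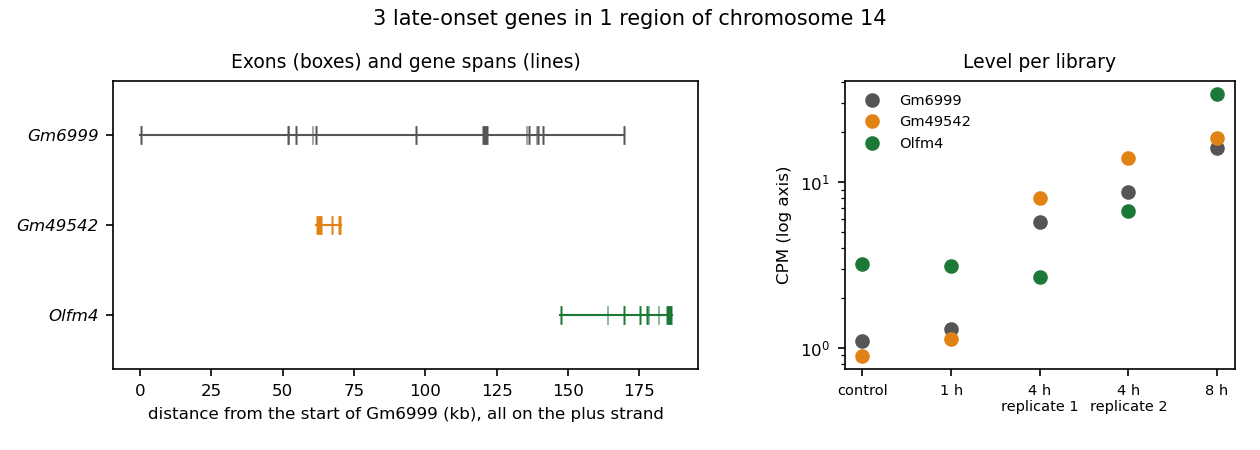
Left, exons (boxes) and spans (lines) of Gm6999, Gm49542 and Olfm4 by distance from the start of Gm6999 in kb; short exons are drawn wider than scale to be visible. Right, CPM (log axis) of the 3 genes per library: the lincRNA genes are above the control in both 4 h replicates, and Olfm4 reaches its highest level at 8 h.

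Plekha2 and the antisense gene 5830408C22Rik on chromosome 8 share 521 bp of exon, and the strand setting of the counting is not stated, so their reads cannot be told apart with certainty. Plekha2, a phosphoinositide-binding adaptor, had 31.8 CPM in the control, 32.0 at 1 h, 36.7 in replicate 1, 128 in replicate 2 and 122 at 8 h. 5830408C22Rik had 1.47, 1.01, 1.37, 5.86 and 5.90 CPM in that order, so in both genes replicate 2 was near 8 h and replicate 1 near the control. Rnf149 and Gm15832 share 707 bp of exon on 1 strand, and Tesc and Gm9754 lie 3481 bp apart. By annotation, 121 of the 141 genes were protein coding (85.8%, against 91.4% of the 13349 genes) and 9 were TEC gene models, which are unspliced models to be experimentally tested (6.38%, against 3.09%). Of these 9, 8 lay in a protein-coding gene and 7 on its strand, while those host genes had 8 h ratios between 0.938 and 1.41. Reads on no gene made up 24.7% of all reads in the control, 29.0% at 1 h, 33.1% and 25.3% in the 4 h replicates and 30.9% at 8 h, and their link to these models was not tested.

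RefSeq promoter windows of 300 bases (250 before and 50 after the start, GRCm38.p6) were found for 99 of the 141 genes, as 141 windows. The AP-1 motif, TGACTCA or its reverse complement TGAGTCA, was in 9.93% of these windows, against 5.20% of 32851 windows of all genes, on either strand. It was found for 12 genes: Adgrf4, Anxa2, Dgat2l6, Gbp2, Gfpt2, Gm6999, Il15ra, Kcnip3, Klhl40, Prss23, Sphk1 and Srxn1. The CRE, TGACGTCA, was in 1.42% of windows (1.79% of all), in S1pr2 and Sstr2, and the STAT motif TTCCNGGAA in 1.42% (1.15%), in Gfap and Icam1. The E-box CACGTG was in 9.93% (7.15%), the glucocorticoid receptor core ACANNNTGT in 6.38% (6.85%), the heat shock motif TTCNNGAA in 4.96% (8.52%) and the TATA box TATAAA in 6.38% (13.6%). The EGR motif GCGTGGGCG (0.612% of all windows) and the NF-kB motif GGGACTTTC (0.353%) were in none. None of these motifs contains another. The windows of the late-onset genes also held more CpG dinucleotides, with a median of 16 against 7, so they differ from all windows in base content and the shares are not like for like. A match is a stretch of letters and not a measured binding site.

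The bases upstream of the start are shown for 4 genes with different time courses, 5′ to 3′ on the strand of the gene, with the motif in capitals. Dgat2l6 (chrX:100524588-100524837, plus strand) was up at 4 h and higher at 8 h, Adgrf4 (chr17:42692285-42692534, minus strand) was not up at 4 h, and Srxn1 (chr2:152105274-152105515, plus strand) was highest at 4 h. All 3 hold the AP-1 motif, Srxn1 at 2 places. Sstr2 (chr11:113619077-113619326, plus strand), also highest at 4 h, holds the CRE.
Dgat2l6: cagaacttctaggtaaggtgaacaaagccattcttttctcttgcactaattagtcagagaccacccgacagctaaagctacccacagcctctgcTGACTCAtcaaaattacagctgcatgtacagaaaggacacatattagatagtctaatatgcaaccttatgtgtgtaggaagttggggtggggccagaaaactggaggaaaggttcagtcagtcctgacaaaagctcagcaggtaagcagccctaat
Adgrf4: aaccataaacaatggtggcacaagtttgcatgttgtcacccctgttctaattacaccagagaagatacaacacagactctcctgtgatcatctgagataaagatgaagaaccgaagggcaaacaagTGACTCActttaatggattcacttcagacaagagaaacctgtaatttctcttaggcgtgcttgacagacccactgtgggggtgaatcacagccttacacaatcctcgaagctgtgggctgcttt
Srxn1: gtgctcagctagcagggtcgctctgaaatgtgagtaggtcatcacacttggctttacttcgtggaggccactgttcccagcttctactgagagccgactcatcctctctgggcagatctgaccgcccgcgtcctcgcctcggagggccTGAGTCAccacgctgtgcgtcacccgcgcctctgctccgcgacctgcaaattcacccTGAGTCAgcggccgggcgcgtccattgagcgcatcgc
Sstr2: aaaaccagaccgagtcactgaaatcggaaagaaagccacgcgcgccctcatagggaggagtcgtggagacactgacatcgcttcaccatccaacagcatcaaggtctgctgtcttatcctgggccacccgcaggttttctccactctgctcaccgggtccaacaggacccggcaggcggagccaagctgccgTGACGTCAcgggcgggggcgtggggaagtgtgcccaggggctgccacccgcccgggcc

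Genes near the limits of the rule show how close the choice was. At the limit of the 8 h ratio, Tesc and C1ql2 (2.003 each) were inside, and Rbpj (1.997) and Vegfa (1.998) outside. At the limit of the 1 h ratio, Acvr1 (1.287) and Srxn1 (1.297) were inside, and Slco5a1 (1.316) and Tgfb3 (1.318) outside. By mean count, Jsrp1 (50.8) and Crybg2 (51.2) were inside, and Gm42047 (47) and Mfap4 (47.8) outside. Slco5a1 had 56 counts in the control, 69 at 1 h, 530 and 341 in the 4 h replicates and 154 at 8 h, a course close to that of Srxn1. With replicate 1 at 4 h left out, which lacked choroid plexus RNA, 141 genes met the rule, 137 of them as before. Crybg2, Gm44022, Gm44901 and Sphk1 were lost by mean count. Without replicate 2, 136 genes met the rule, all of them as before. Lcn2, Jsrp1, Crybg2, 5830408C22Rik and Gm42894 were then lost by mean count. Of the genes named above, Acvr1, Angptl4, Aspg, Gipr, Icam1, Jsrp1, Parp14 and Srxn1 passed 1.3 times the control at 1 h with TMM or median-of-ratios factors, and C1ql2, Pecam1 and Tesc were under 2 times the control at 8 h. With a pseudocount of 1 CPM, Angptl4, C1ql2, Crybg2, Gbp2, Gipr, Gm44901, Hspb1, Il15ra, Itga11, Parp14, Pecam1, Smad9, Sphk1 and Tesc were under 2 times the control at 8 h.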

How the data were processed

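Total RNA of 5 hippocampal libraries was sequenced as paired ends from stranded libraries. The authors deposited whole-number counts per gene, made, per the labels, with STAR 2.5.1b, HTSeq and GRCm38.p4. The annotation release and strand setting are not stated, and 0 measurement columns were left out. Lines for reads on no gene (24.7% of all reads in the control to 33.1% in replicate 1 at 4 h, with 30.9% at 8 h), ambiguous and multiply aligned reads stayed out of library sizes. Of 55385 gene identifiers, 55144 matched GENCODE M21 (GRCm38), used for names, positions and exons.

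CPM, ratios with a pseudocount of 0.1 CPM and exact binomial 95% intervals of count ratios were computed in Python 3.11.15 (scipy 1.17.1). The 4 h and control libraries were compared with edgeR 4.0.16 in R 4.3.3 (filterByExpr, TMM, quasi-likelihood, 4 conditions, 1 residual degree of freedom, Benjamini-Hochberg threshold 0.05), which was tested on simulated data. Alternatives were DESeq2 1.42.0, limma-voom 3.58.1, median-of-ratios factors, library size alone, no filter, an assumed coefficient of variation of 0.4, other minimum counts, a pseudocount of 1 CPM and leaving out each 4 h replicate.

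Named genes were the 12 with the largest 8 h ratio, the 8 with the highest CPM at 8 h, the 6 with the largest and the 6 with the smallest 4 h ratio, the 6 with the largest gap between 4 h replicates, those nearest each limit of the rule and every late-onset gene of the marker and pathway lists. Other genes were added by role after their values were seen. The late-onset genes and the lists were chosen with earlier results of these data known.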

Additional observations from a re-analysis of the deposited data

Results flagged for a closer look

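In 7 of the late-onset genes both 4 h replicates lay below the control by more than 1.3-fold and the 8 h library lay at least 2 times above it. Over the 13349 genes, 17.0% had both 4 h replicates this far below the control, against 4.96% of the late-onset genes. Among the 7 genes, the mean log2 ratio to control at 4 h was -1.90 for Gm46123, -1.79 for Pla2g2f, -1.49 for C1ql2, -1.15 for Megf6, -1.08 for Slc27a3, -1.01 for Gm34567 and -0.54 for Tnfrsf25. The difference between 4 h and 8 h was not tested, since the 8 h library has no replicate. In Pla2g2f, Megf6 and Slc27a3 the 4 h replicates themselves differed by 2-fold or more, with the lower value in replicate 1. With TMM or median-of-ratios factors, Gm46123, Pla2g2f and Gm34567 met these limits, whereas C1ql2 no longer reached 2 times the control at 8 h (log2 ratio 0.98) and Megf6, Slc27a3 and Tnfrsf25 no longer met the limits either.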

How the results depend on the processing

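With TMM or median-of-ratios factors 124 genes met the rule, all among the 141, with 40 up and 30 not up at 4 h in place of 41 and 41. TMM raised log2 ratios by 0.18 in replicate 1 and 0.07 in replicate 2 at 4 h, and the median log2 ratio at 4 h was 0.84 as reported, 0.89 with TMM and 0.91 with median-of-ratios factors. A pseudocount of 1 CPM gave 122 genes, 111 of them shared. A minimum mean count of 20 gave 247 genes with 73 not up at 4 h and a median of 0.59, and one of 200 gave 75 genes with 19 up and 25 not up, since these minimums admit more or fewer genes. Leaving out a 4 h replicate gave 136 to 141 genes, 50 to 55 up, 48 to 54 not up and a median of 0.68 to 0.83. Of 104 single-gene values none with a log2 ratio of 1 or more in size changed sign under the alternatives, 7 moved with TMM, 7 with median-of-ratios factors and 16 with a pseudocount of 1 CPM. None was counted as moved without a 4 h replicate, yet some 4 h values shifted widely there. The mean 4 h log2 ratio of Plekha2 went from 1.11 to 2.01 without replicate 1 and to 0.21 without replicate 2. That of Itga11 went from -0.37 to 0.60 and to -1.34. At 4 h against the control the 1 call of edgeR became 0 with median-of-ratios factors, 237 with library size alone, 1300 with no filter and 81 with an assumed coefficient of variation of 0.4, while DESeq2 gave 234 and limma-voom 0; the cause was not tested. Leaving out a 4 h replicate leaves no residual degrees of freedom, so this test was not run. Depth limits the rarest genes: 1 count is 0.0602 CPM at 8 h, and ratios of genes with control counts such as the 6 of Lcn2 have wide counting intervals.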

Other observations

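Genes of sugar metabolism and glycosylation, picked after their values were seen, followed different courses among the late-onset genes. Gfpt2, an entry enzyme of the hexosamine pathway, had 3.93 CPM in the control, 11.6 and 8.84 in the 4 h replicates and 9.33 at 8 h, and Gxylt2, a xylosyltransferase, had 2.46, 6.68, 13.4 and 10.8 CPM. Both were up in each 4 h replicate. Dpm3, a subunit of dolichol-phosphate mannose synthase, had 6.07 CPM in the control, 4.44 and 8.79 in the 4 h replicates and 21.1 at 8 h. The sialyltransferase gene St6galnac4 had 30.2, 24.1, 35.5 and 64.3 CPM, so for these genes the 8 h library stood above both replicates at 4 h.

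Cell division genes of the list had no late-onset gene, yet Racgap1, which acts in cytokinesis, was one, with 4.45 CPM in the control, 5.15 and 5.34 in the 4 h replicates and 9.93 at 8 h. With TMM or median-of-ratios factors Racgap1 passed 1.3 times the control at 1 h and was not one. Polq, a DNA repair polymerase, had 2.62 CPM in the control, 7.67 and 6.96 in the 4 h replicates and 5.60 at 8 h, under 2 times the control with a pseudocount of 1 CPM. The dopamine receptor gene Drd5 had 16.9 CPM in the control, 23.8 in replicate 1, 46.2 in replicate 2 and 37.8 at 8 h.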
